A study of Mus musculus with 6 samples.

Results

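Smoc2, Vsnl1, Cpne5 and Ntm are 4 genes that are enriched in the sinoatrial node and encode neither ion channels nor transcription factors. They were picked by symbol, and each was found once in all 6 deposited tables, so 4 of 30631 listed genes are described here. The libraries came from mouse embryonic stem cell clones that were differentiated in hanging drops toward sinoatrial node-like cardiomyocytes and sorted at stage 7+1 days for CD166, a surface protein encoded by Alcam. Of the 6 RNA-seq libraries, 3 were labelled Shox2-/- and 3 were labelled wild type (WT). The 3 titles labelled Shox2-/- begin with 1 shared, clone-like code and the 3 labelled WT with different codes, so an effect of genotype and one of the clone cannot be told apart. The making of the Shox2 allele is not given in the sources used here. Separate cultures are not stated for the libraries of a group either, and every p-value therefore reflects the spread between these libraries, which may be partly technical. The titles carry a Diff number, 7, 8 and 9 for libraries 1, 2 and 3 labelled Shox2-/-. It is 9 for both library 1 and library 2 labelled WT and differs for library 3. Whether this number marks a separate culture is not stated.

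The sinoatrial node is the heart's natural pacemaker, a small tissue whose cells depolarise spontaneously and drive the beat. Its cells form from the sinus venosus under factors that include Shox2, Isl1, Tbx18 and Tbx3, and Shox2, a homeodomain protein, is known to hold back the working-muscle program there. Smoc2 encodes a secreted calcium-binding matrix protein of the SPARC family, and Vsnl1 encodes visinin-like protein, a neuronal calcium sensor that moves to membranes when it binds calcium. Cpne5 encodes a copine, a cytosolic protein with C2 domains that binds phospholipids in a calcium-dependent way. Ntm encodes neurotrimin, an IgLON cell adhesion molecule of the immunoglobulin superfamily that is anchored to the membrane by a lipid and is best known from neurons.

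The gene models differ widely in size. On mm10 (GRCm38) as annotated by GENCODE release M21, Smoc2 (ENSMUSG00000023886) lies on the plus strand of chromosome 17 from 14279506 to 14404790. Cpne5 (ENSMUSG00000024008) lies on the minus strand of the same chromosome from 29155556 to 29238167. Vsnl1 (ENSMUSG00000054459) lies on the minus strand of chromosome 12 from 11325242 to 11436613, and Ntm (ENSMUSG00000059974) on the minus strand of chromosome 9 from 28994750 to 29963141. The merged annotated exons cover 6951 bases in Smoc2, 1956 in Vsnl1, 13571 in Cpne5 and 8079 in Ntm. Each deposited value is for the whole gene and was not split by exon or intron. Of the genes that overlap a member, the antisense gene Gm15520 and the intronic gene Gm15521 lie inside Ntm and are listed in the tables. They share 0 exon bases with Ntm, and Gm15520 had 17.3, 10.7 and 26.7 normalized counts in libraries 1, 2 and 3 labelled Shox2-/- and 13.3, 22.2 and 28.3 in those labelled WT.

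Because Shox2 is a homeodomain protein, the stretches before the members' transcription starts were read for TAAT, the core letters that many homeodomains recognise. RefSeq (GRCm38.p6) had a start for 3 of the 4 genes in the table used here, 2 for Vsnl1, 1 for Cpne5 and 2 for Ntm. Below are the 250 bases before 1 start of Ntm, the only one of the 5 windows with the motif, and before the start of Vsnl1 that lies clear of annotated exons, both on the minus strand and written 5′ to 3′. Capitals mark TAAT on either strand (TAAT or ATTA).
Ntm, chr9:29412686-29412935: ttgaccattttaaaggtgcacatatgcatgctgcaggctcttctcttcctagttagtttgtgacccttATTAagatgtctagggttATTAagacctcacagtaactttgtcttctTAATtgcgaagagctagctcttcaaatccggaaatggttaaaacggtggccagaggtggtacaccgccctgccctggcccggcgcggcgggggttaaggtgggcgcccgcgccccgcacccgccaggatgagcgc
Vsnl1, chr12:11435652-11435901: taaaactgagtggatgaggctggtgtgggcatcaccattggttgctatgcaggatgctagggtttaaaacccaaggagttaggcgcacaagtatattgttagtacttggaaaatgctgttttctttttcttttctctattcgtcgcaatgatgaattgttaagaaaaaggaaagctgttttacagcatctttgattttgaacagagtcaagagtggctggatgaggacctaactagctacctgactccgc
The Ntm window holds 3 matches, which begin 182, 164 and 135 bases before the start. Both Ntm windows lie inside the gene model, far from its 5′ end at 29963141. The printed Vsnl1 window also lies inside its gene model, whose 5′ end is at 11436613. The other Vsnl1 window, chr12:11436579-11436828, spans that end. It shares 35 bases with annotated exons and is 58.0% G and C. Of 32841 windows of the same length in the table, 54.9% hold TAAT on either strand and 4.84% hold the longer TAATTA, which 0 of the 5 windows here contain. The Cpne5 window (chr17:29237791-29238040, minus strand) lies wholly in exons annotated by GENCODE and is 76.4% G and C, above 97.0% of all windows. The Ntm and Vsnl1 windows printed above are 53.6% and 41.6% G and C, and the median of all windows is 52.4%. These letters describe the windows alone and show no binding.

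The deposited value is a normalized count, the number of reads assigned to a gene divided by a size factor of its library. Between 13504683 and 34650564 reads per library stood behind the values, and library 1 of each group was the shallowest. Libraries were compared in pairs over genes with at least 100 reads in both, a mark that Vsnl1 and Cpne5 did not reach. Libraries 1 and 2 labelled WT stood apart as a near-identical pair. Of these genes, 15.7% differed beyond counting error, against 52.2% to 75.4% in the other 14 pairs. Shox2 itself was higher in the libraries labelled Shox2-/- (374 ± 174 normalized counts; SD, n = 3) than in those labelled WT (68.2 ± 32.0; SD, n = 3), which goes against a plain loss of its reads, so each direction below is one between labels. Alcam, the sorted marker, had 4598 ± 622 normalized counts in libraries labelled Shox2-/- and 6319 ± 415 in those labelled WT (SD, n = 3 each). All 12 cardiomyocyte markers passed the filter on low values, and of 18 other sinoatrial genes 16 did, with Gjd3, a gap junction gene, and Kcnj3, an inward rectifier channel gene, below it.

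The libraries labelled Shox2-/- had lower means of all 4 genes, and no gene passed the test. The mean in libraries labelled Shox2-/- was 0.246 times that in libraries labelled WT for Vsnl1, 0.367 times for Smoc2, 0.487 times for Cpne5 and 0.928 times for Ntm. For Smoc2 and Cpne5 every library labelled Shox2-/- lay below every library labelled WT, while for Vsnl1 and Ntm the groups overlapped. Fitted over all 17034 genes with a normalized count of at least 10 in at least 3 libraries, with limma on log2(value + 1) and Benjamini-Hochberg adjustment, 0 of the 4 genes were called at an adjusted p under 0.05. The background was the same: 0% of all genes tested were called. At an unadjusted p under 0.05, 2 of the 4 genes, Smoc2 and Cpne5, were lower and 0 were higher. In limma with a replicate block for the 3 libraries that have Diff9 in their titles (libraries 1 and 2 labelled WT and library 3 labelled Shox2-/-), 0 of the 4 passed that mark, with an unadjusted p of 0.0777 for Smoc2 and 0.0553 for Cpne5. With libraries 1 and 2 labelled WT averaged into 1 sample, the unadjusted limma p was 0.0393 for Smoc2 and 0.0847 for Cpne5. With 1 library left out at a time, the mark was passed in 3 of 6 cases for Smoc2 and in 2 of 6 for Cpne5. Of all genes tested, 7.23% were lower and 6.92% higher at that mark, 14.2% (2411 genes) in all. Limma voom with sample quality weights called 303 genes, none of them a member. The groups did not overlap, in the lower direction, for 2 of the 4 genes and for 10.8% of all genes tested, and in the higher direction for 0 of the 4 and for 12.8% of all.

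**Figure D1:**
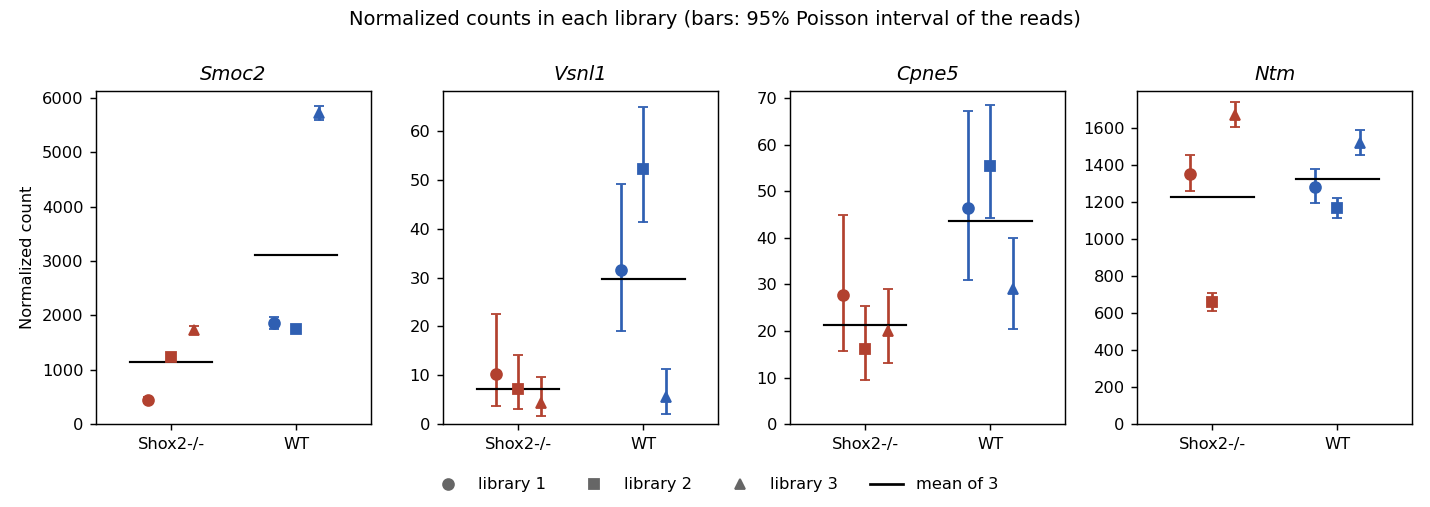
Normalized count (vertical axis, linear from 0) of Smoc2, Vsnl1, Cpne5 and Ntm in the 3 libraries labelled Shox2-/- (left in each panel) and the 3 labelled WT. Symbols give the library number, vertical bars the 95% Poisson interval of the reads behind the value and black lines the mean of 3. Library 3 labelled WT has the highest Smoc2 value, 5712, and the lowest Vsnl1 value of its group, 5.50.

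Smoc2, the matrix gene, was the most abundant of the 4 in libraries labelled WT and varied widely under both labels, with a coefficient of variation of 56.9% in libraries labelled Shox2-/- and 72.5% in those labelled WT. It had 445, 1246 and 1730 normalized counts in libraries 1, 2 and 3 labelled Shox2-/-, against 1859, 1756 and 5712 in libraries 1, 2 and 3 labelled WT. The groups did not overlap, but the gap was narrow: library 3 labelled Shox2-/- (1730, 95% Poisson interval 1661 to 1802) and library 2 labelled WT (1756, 1691 to 1824) cannot be told apart by counting error alone. The intervals here and below cover counting error only. The means were 1140 ± 649 in libraries labelled Shox2-/- and 3109 ± 2255 in those labelled WT (SD, n = 3 each). The log2 change, Shox2-/- over WT, was -1.43 (SE 0.60, 95% interval -2.84 to -0.01; limma adjusted p = 0.352, unadjusted p = 0.0487). Of the 17034 genes tested, 341 had a lower log2 change. The size of the difference rested in part on the lowest and the highest library: the log2 change was -0.85 without library 1 labelled Shox2-/- and -0.87 without library 3 labelled WT.

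The summed markers of mesenchyme and fibroblasts, cells that also make Smoc2 in many tissues and that a CD166 gate could hold, moved with it. Their 12 genes summed to 231042, 304171 and 347871 normalized counts in libraries 1, 2 and 3 labelled Shox2-/-, against 464523, 456164 and 655458 in libraries 1, 2 and 3 labelled WT. The sums did not overlap between the groups and put the 6 libraries in the same order as Smoc2, lowest in library 1 labelled Shox2-/- and highest in library 3 labelled WT. Of the 11 members tested, 9 were lower and 2 higher in libraries labelled Shox2-/-, and 0 passed the adjusted test. An unadjusted limma p under 0.05 was reached by 5, all lower, beside 7.23% of all genes tested that were lower at that mark. The 2 higher ones, Pdgfra and Pdgfrb, were lowest of all 6 libraries in library 3 labelled WT, at 8389 and 2639. Postn and Fn1 were lowest of the WT label there. Col1a1, Col1a2, Col3a1, Dcn, Lum, Dpt and Thy1 were highest of all there, as Smoc2 was. The median log2 change of the list was -0.98, beside 0.01 for all genes tested. No member was at 0 in every library. The sums are dominated by the type III collagen gene Col3a1, at 106540 to 177188 in libraries labelled Shox2-/- and 217111 to 333969 in those labelled WT. Col3a1 was lowest in library 2 labelled Shox2-/-, while Smoc2 was lowest in library 1. The part of these cells in the Smoc2 difference was not tested. In bulk samples, fewer cells of a type and less RNA per cell cannot be told apart.

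**Figure D2:**
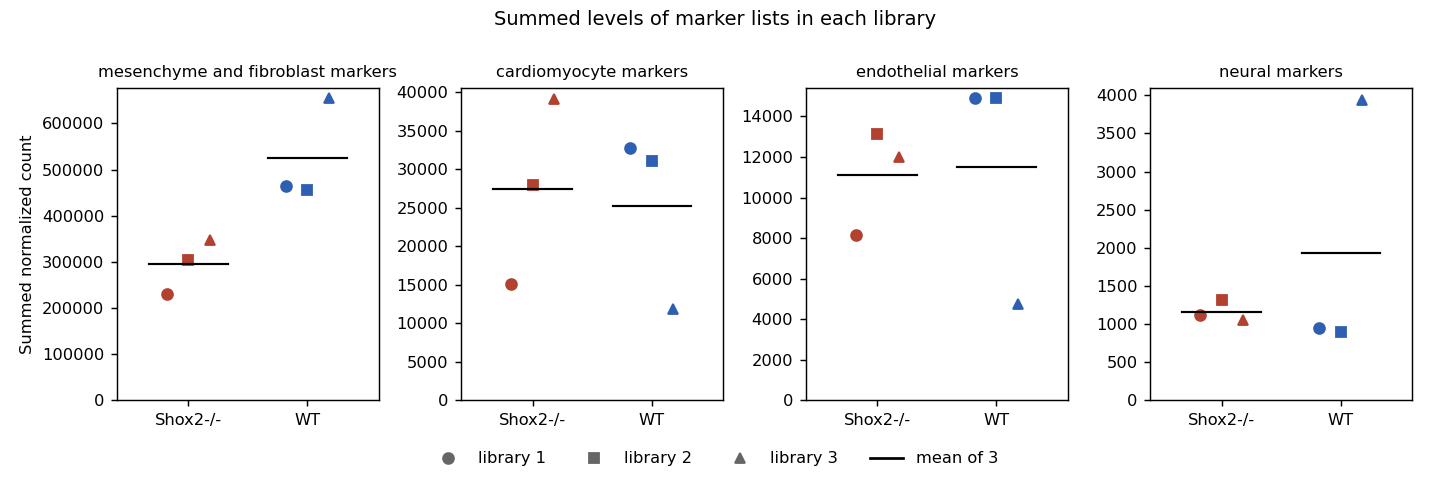
Summed normalized counts (vertical axis, linear from 0), of 4 marker lists in the 3 libraries labelled Shox2-/- (left in each panel) and the 3 labelled WT. Symbols give the library number and black lines the mean of 3. Mesenchyme and fibroblast markers separate the groups, while cardiomyocyte and endothelial markers are lowest in library 3 labelled WT and neural markers highest there.

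Other genes of the SPARC family, which shares a calcium-binding extracellular module, were mostly lower as well. All 8 listed members were tested, Smoc2 among them: 7 were lower, 1 was higher and 0 were called, with a median log2 change of -1.03. Unadjusted limma p was under 0.05 for 4, Smoc2 among them, all lower, beside 7.23% of all genes tested that were lower at that mark. Spock2, a testican proteoglycan, had 22.5, 30.4 and 22.2 normalized counts in libraries 1, 2 and 3 labelled Shox2-/- and 58.1, 58.7 and 142 in those labelled WT (log2 change -1.63, SE 0.40). Its relative Spock1 had a log2 change of -1.32 (SE 0.45), and Sparc itself, a collagen-binding matrix protein, one of -0.73 (SE 0.21). Sparcl1 had one of -1.51 (SE 0.76), with overlapping groups. Smoc1, the closest relative of Smoc2, was the member with a higher mean: it had 687, 271 and 564 normalized counts in libraries 1, 2 and 3 labelled Shox2-/- and 463, 513 and 148 in those labelled WT (log2 change 0.52, SE 0.53). Library 3 labelled WT, highest for Smoc2, was lowest for Smoc1. Spock3 and Fstl1, a secreted follistatin-like protein, had log2 changes of -0.32 (SE 0.49) and -0.26 (SE 0.31).

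Vsnl1, the calcium sensor, was at the edge of detection outside of a single pair of libraries. It had 10.4, 7.15 and 4.44 normalized counts in libraries 1, 2 and 3 labelled Shox2-/-, against 31.5, 52.1 and 5.50 in libraries 1, 2 and 3 labelled WT. Behind these values stood 6, 8 and 6 reads in the libraries labelled Shox2-/- and 19, 80 and 7 reads in those labelled WT. Libraries 1 and 2 labelled WT, the near-identical pair, were high, and library 3 labelled WT lay among the libraries labelled Shox2-/-. With 3 libraries at or above 10, the gene only just passed the filter, through that pair and library 1 labelled Shox2-/-. The means were 7.32 ± 2.97 in libraries labelled Shox2-/- and 29.7 ± 23.4 in those labelled WT (SD, n = 3 each), a log2 change of -1.49 (SE 0.77, 95% interval -3.31 to 0.32; limma adjusted p = 0.418). On this scale the change of so low a gene is understated. Without library 3 labelled WT the log2 change was -2.38 (SE 0.46; limma adjusted p = 0.189), without library 2 labelled WT it was -0.87, and with libraries 1 and 2 labelled WT averaged into 1 sample it was -1.07.

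The cardiomyocyte markers were also low in library 3 labelled WT. The 12 genes of this list, contractile and calcium-handling genes of heart muscle, summed to 15040, 27972 and 39171 normalized counts in libraries 1, 2 and 3 labelled Shox2-/- and to 32705, 31115 and 11819 in libraries 1, 2 and 3 labelled WT. Of the 12 markers, 11 had their lowest value within the WT label in library 3, and Pln, a regulator of the calcium pump, had its highest there. The list did not separate the groups, with 5 members higher and 7 lower of 12 tested and 0 called. Libraries 2 and 3 labelled Shox2-/- had Vsnl1 values of 7.15 and 4.44 beside marker sums close to or above those of libraries 1 and 2 labelled WT. The part of heart muscle content in the Vsnl1 difference was not tested.

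In the wider family of neuronal calcium sensors and Kv channel interacting proteins, 8 of 13 members passed the filter, 6 lower and 2 higher, and 0 were called. The median log2 change was -0.11. Ncs1, the frequenin-type sensor, was by far the highest member, at 1022 ± 184 normalized counts in libraries labelled Shox2-/- and 884 ± 80.3 in those labelled WT (SD, n = 3 each; log2 change 0.20, SE 0.15). Hpcal1 and Ncald, close relatives of Vsnl1, had log2 changes of -0.12 (SE 0.23) and -0.10 (SE 0.38). Kcnip2, an accessory subunit of transient outward potassium channels, had one of -0.78 (SE 0.54), Kcnip3 one of 0.28 (SE 0.19), Kcnip4 one of -0.24 (SE 0.23) and Guca1b, a guanylate cyclase activator known from photoreceptors, one of -0.04 (SE 0.35). Hpca, Hpcal4, Rcvrn, Guca1a and Kcnip1 were below the filter. The difference between Vsnl1 and its relatives was not tested.

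Cpne5, the copine, was the member whose difference was largest relative to its error. It had 27.7, 16.1 and 20.0 normalized counts in libraries 1, 2 and 3 labelled Shox2-/-, against 46.5, 55.4 and 29.1 in libraries 1, 2 and 3 labelled WT. The groups did not overlap, but library 1 labelled Shox2-/- (95% Poisson interval 15.8 to 45.0) and library 3 labelled WT (20.5 to 40.0) were within counting error of each other. Between 16 and 85 reads stood behind each value. The means were 21.3 ± 5.90 in libraries labelled Shox2-/- and 43.6 ± 13.4 in those labelled WT (SD, n = 3 each). The log2 change was -0.99 (SE 0.35, 95% interval -1.82 to -0.16; limma adjusted p = 0.301, unadjusted p = 0.0252). Leaving out 1 library at a time gave log2 changes of -1.25 to -0.80. A short unprocessed transcript model on the opposite strand, AC162182.2, shares 146 exon bases with Cpne5. Whether strand was used in counting is unknown, so reads from that stretch may come from either gene.

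Of the 9 copines, 8 were tested, 4 higher and 4 lower, with 0 called and a median log2 change of -0.30. The 3 with an unadjusted limma p under 0.05 were all lower and did not overlap between the groups: Cpne5, Cpne7 (log2 change -0.77, SE 0.27) and Cpne8 (log2 change -1.05, SE 0.37). Among all genes tested, 7.23% were lower at that mark and 10.8% did not overlap in the lower direction. Cpne8 had 27.7, 23.2 and 25.9 normalized counts in libraries 1, 2 and 3 labelled Shox2-/-, against 38.2, 44.3 and 93.4 in those labelled WT. It was therefore highest in library 3 labelled WT, where Cpne5 was lowest of its group. Cpne3, the most abundant copine, was at 3082 ± 344 normalized counts in libraries labelled Shox2-/- and 3077 ± 857 in those labelled WT (SD, n = 3 each), a log2 change of 0.03 (SE 0.19, 95% interval -0.42 to 0.49). Cpne2 (log2 change 0.39, SE 0.18), Cpne1 (0.17, SE 0.39), Cpne4 (0.10, SE 0.39) and Cpne9 (-0.62, SE 0.39) had overlapping groups, and Cpne6 was below the filter.

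Ntm, the adhesion gene, had nearly equal means under both labels. It had 1353, 661 and 1670 normalized counts in libraries 1, 2 and 3 labelled Shox2-/-, against 1283, 1166 and 1520 in libraries 1, 2 and 3 labelled WT. The highest and the lowest value both came from libraries labelled Shox2-/-, so the spread under that label enclosed all 3 libraries labelled WT. The means were 1228 ± 516 in libraries labelled Shox2-/- and 1323 ± 180 in those labelled WT (SD, n = 3 each). The log2 change was -0.20 (SE 0.32, 95% interval -0.96 to 0.55; limma adjusted p = 0.804), an interval that includes both lower and higher levels. Without library 2 labelled Shox2-/-, the lowest, the sign turned and the log2 change was 0.19 (SE 0.16). Neural markers were read beside Ntm because neurons express it, and their 14 genes summed to 1118, 1309 and 1055 in libraries 1, 2 and 3 labelled Shox2-/- and to 944, 897 and 3943 in those labelled WT. Of the 12 tested, 10 were lower, 2 were higher and 0 were called, with a median log2 change of -0.95. Unadjusted limma p was under 0.05 for 2 that were lower and 1 that was higher. Among all genes tested, 7.23% were lower and 6.92% higher at that mark. Library 3 labelled WT, with the highest neural sum, had the highest Ntm value of its label, 1520. Library 3 labelled Shox2-/- had an Ntm value of 1670 beside a neural sum of 1055. The part of neural cells in the Ntm level was not tested.

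The IgLON family, neuronal adhesion proteins that pair with each other at the cell surface, had all 5 members tested, 4 lower and 1 higher, with 0 called and a median log2 change of -0.30. Opcml had 235, 189 and 230 normalized counts in libraries 1, 2 and 3 labelled Shox2-/- and 211, 234 and 516 in those labelled WT (log2 change -0.44, SE 0.34). Lsamp (log2 change -0.76, SE 0.38) was likewise highest in library 3 labelled WT, at 145. Negr1 had a log2 change of -0.30 (SE 0.31) and Iglon5 one of 0.12 (SE 0.85). Per kilobase of exon, Ntm was the highest of the family by far, with a mean level of 152 normalized counts per kilobase in libraries labelled Shox2-/- and 164 in those labelled WT, while the next, Negr1, had 37.3 in libraries labelled Shox2-/- and 44.0 in those labelled WT.

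**Figure D3:**
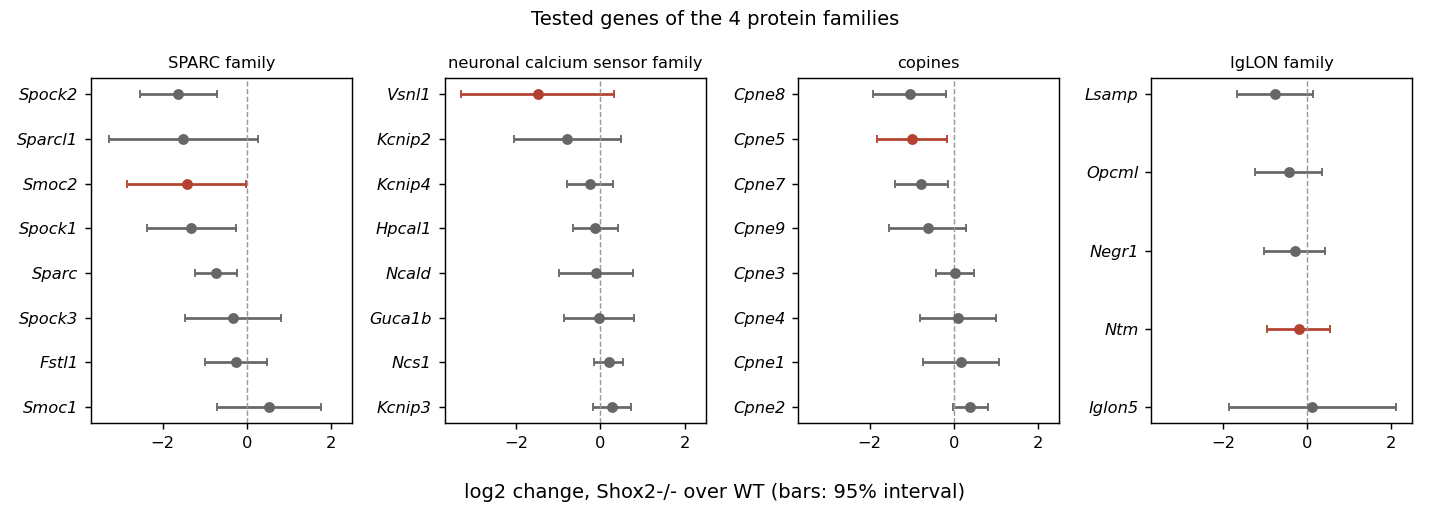
Log2 change, Shox2-/- over WT (horizontal axis), of each tested gene in the SPARC, neuronal calcium sensor, copine and IgLON families, with 95% limma intervals; red marks Smoc2, Vsnl1, Cpne5 and Ntm. Of these 29 genes 0 were called, and the medians are -1.03, -0.11, -0.30 and -0.30 from left to right.

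Compared per kilobase of annotated exon, the 4 genes fell into a high and a low pair. In libraries labelled Shox2-/- Smoc2 ranged from 64.0 to 249 normalized counts per kilobase and Ntm from 81.8 to 207, so their levels overlapped. In libraries labelled WT Smoc2 ranged from 253 to 822 and Ntm from 144 to 188, without overlap. Vsnl1 ranged from 2.27 to 5.31 normalized counts per kilobase in libraries labelled Shox2-/- and from 2.81 to 26.7 in those labelled WT. Cpne5 was lowest in 6 of 6 libraries, at 1.19 to 2.04 in libraries labelled Shox2-/- and 2.14 to 4.08 in those labelled WT. That rank rests on exon length, 13571 bases for Cpne5 and 1956 for Vsnl1, and on as few as 6 Vsnl1 reads. By normalized count Cpne5 was above Vsnl1 in every library. By mean normalized count, Smoc2 and Ntm stood at percentiles 83.8 and 73.8 of the genes tested, and Cpne5 and Vsnl1 at 16.5 and 8.9.

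The order of the libraries differed between the members. On log2(value + 1) over the 6 libraries, which include a near-identical pair and differ in depth, Pearson's r was 0.89 between Vsnl1 and Cpne5, both of which were highest in libraries 1 and 2 labelled WT. The other 5 pairs of members lay between -0.11 and 0.30. The genes most like each member were sought by the same measure among the genes with a mean normalized count of at least 50. For Smoc2 they were Stab1, a scavenger receptor (r = 0.997), Lum, a collagen-binding proteoglycan and 1 of the mesenchyme markers above (0.996), and the ubiquitin ligase gene Nedd4l (0.994). Stab1 had 41.5, 181 and 257 normalized counts in libraries 1, 2 and 3 labelled Shox2-/- and 330, 333 and 1383 in those labelled WT. For Vsnl1 they were B930095G15Rik (0.990), the RNA-binding protein gene Caprin2 (0.983) and Tsc1, a growth regulator (0.976). For Cpne5 they were the non-muscle myosin gene Myh10 (0.999), 5430405H02Rik (0.990) and Evc2, a ciliary protein gene (0.985). For Ntm they were Frmd4a, a scaffold protein gene (0.993), Tmem51 (0.992) and the ribosomal protein gene Rpl31 (0.990). Pearson's r takes no account of the size of a change. The log2 change was -2.09 for Stab1, -1.20 for Lum and -0.33 for Nedd4l, beside -1.43 for Smoc2. It was -0.40 for B930095G15Rik, -0.14 for Caprin2 and -0.11 for Tsc1, beside -1.49 for Vsnl1. For Myh10, 5430405H02Rik and Evc2 it was -0.14, -0.29 and -0.45, beside -0.99 for Cpne5. An r of at least 0.9 was reached by 501 of 13298 genes with Smoc2, 62 of 13299 with Vsnl1, 83 of 13299 with Cpne5 and 102 of 13298 with Ntm.

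Other sinoatrial genes lay on both sides of 0. Of 16 tested genes of the sinoatrial list, which leaves the 4 members out, 7 were higher and 9 lower in libraries labelled Shox2-/-, 0 were called, and the median log2 change was -0.27. Unadjusted limma p was under 0.05 for 4 that were higher (Shox2, Isl1, Gjc1 and Bmp4) and 3 that were lower (Tbx18, Igfbp5 and Pde1a). Among all genes tested, 6.92% were higher and 7.23% lower at that mark. Hcn4, the main pacemaker channel gene, had 306, 241 and 276 normalized counts in libraries 1, 2 and 3 labelled Shox2-/- and 297, 293 and 79.3 in those labelled WT. Cacna2d2, a calcium channel subunit gene, had 39.8, 51.8 and 50.4 in libraries labelled Shox2-/- and 108, 108 and 36.1 in those labelled WT. Both were lowest within the WT label in library 3, as Vsnl1 and Cpne5 were. Pde1a, a cyclic nucleotide phosphodiesterase gene, was highest in that library, as Smoc2 was.

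Markers of the remaining cell types that the gate could hold were lower in most cases and not called. Endothelial markers had 2 higher and 6 lower of 8 tested (median log2 change -0.40) and smooth muscle markers 2 higher and 5 lower of 7 (-0.24). All 8 epithelial markers (-1.10), all 7 endoderm markers tested (-1.40) and all 4 leukocyte markers (-0.99) were lower. Unadjusted limma p was under 0.05 for 5 epithelial, 3 smooth muscle, 2 endothelial, 1 endoderm and 0 leukocyte markers, all lower. Among all genes tested, 7.23% were lower at that mark. The leukocyte sum was 138, 2494 and 293 in libraries 1, 2 and 3 labelled Shox2-/- and 549, 534 and 2621 in those labelled WT, so that it was high in library 2 labelled Shox2-/-, where Ntm was lowest, and in library 3 labelled WT, where Smoc2 was highest. Its part in either was not tested.

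**Figure D4:**
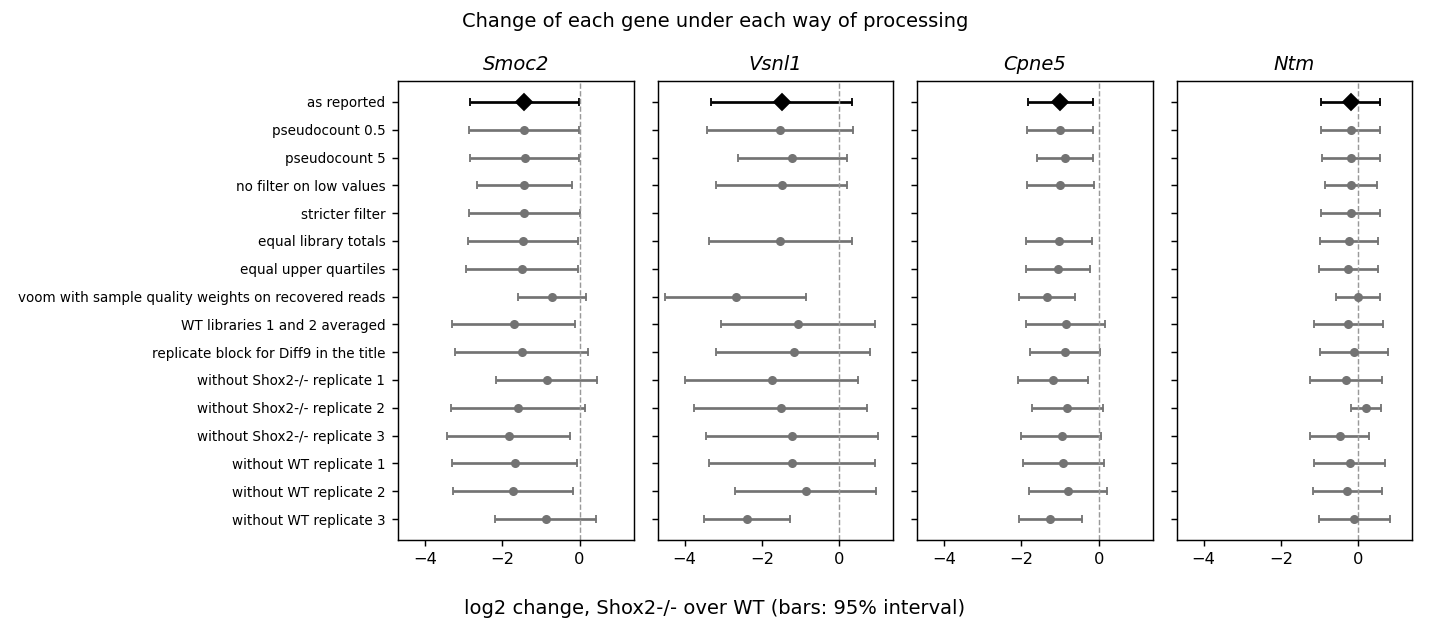
Log2 change, Shox2-/- over WT (horizontal axis), of Smoc2, Vsnl1, Cpne5 and Ntm as reported (diamond) and under each alternative (circles), with 95% limma intervals; a gap marks a gene that fell below that alternative's filter. Smoc2, Vsnl1 and Cpne5 stayed below 0 throughout, and Ntm turned to 0.19 without library 2 labelled Shox2-/-.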

How the data were processed

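RNA-seq was deposited as 1 table per library. The submitters' processing notes name CASAVA 1.8.2, BWA, HTSeq, DESeq2 1.14.0 and mm10 without saying what each did. The library kit and strand setting are not stated. As the values show, the deposited normalized counts are whole reads divided by 1 size factor per library (100% of values whole within 0.1 reads), so limma, which the design named for values other than raw counts, was the main test.

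The model used R 4.3.3 and limma 3.58.1 on log2(value + 1), with 1 term for the labelled group and a mean-variance trend, two-sided, and had been tested on simulated data. Those simulated libraries were independent and only genes well above the filter were changed. The simulation therefore does not cover low genes or a near-identical pair of libraries. A gene entered when 3 or more libraries reached a value of 10, as 17034 did. Such fold changes understate low genes. Poisson intervals (95%) used the recovered reads and scipy 1.17.1. Of 30631 IDs, 30484 were in GENCODE M21. Libraries were numbered in accession order, so the numbers pair nothing.

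The members and the gene lists were chosen with earlier results of these data known. Named genes were the members, their protein families, the 3 genes most like each member over the libraries, overlapping genes, and sinoatrial and marker genes where a result needed them. Alternatives changed the pseudocount, filter, scaling, model, block and libraries.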

Additional observations from a re-analysis of the deposited data

How the results depend on the processing

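Each gene's log2 change was recomputed under 13 to 15 alternatives. Smoc2, Vsnl1 and Cpne5 stayed lower in libraries labelled Shox2-/- in all of them, and 0 of the 4 genes passed an adjusted p of 0.05 in any. Leaving out 1 library gave -1.83 to -0.85 for Smoc2, -2.38 to -0.87 for Vsnl1, -1.25 to -0.80 for Cpne5 and -0.48 to 0.19 for Ntm, which turned only without library 2 labelled Shox2-/-. With limma voom and sample quality weights on recovered reads, which weighted the near-identical libraries 1 and 2 labelled WT at 3.59 and 4.22 and library 3 at 0.21, the log2 change was -0.71 for Smoc2, -2.68 for Vsnl1, -1.34 for Cpne5 (adjusted p = 0.0735) and -0.01 for Ntm. Over all genes, limma called 0 as reported, 2 without the filter, 303 with voom quality weights, 0 to 51 when 1 library was left out (51 without library 2 labelled Shox2-/-) and 0 in the other alternatives; the cause was not tested. No paired analysis was possible because the groups' titles share only the number Diff9; with a replicate block for Diff9 the log2 changes were -1.50, -1.18, -0.87 and -0.12 for Smoc2, Vsnl1, Cpne5 and Ntm. Under the stricter filter Vsnl1 and Cpne5, and with equal upper quartiles Vsnl1, fell below the filter and gave no value. The planned count models on recovered reads were not run. Depth limits Vsnl1 most, with 6 to 8 reads in 4 of 6 libraries.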
